A study of Mus musculus with 6 samples.

Results

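The BCL2 family genes were followed here in activated mouse T cells, as 10 genes chosen by symbol for their role in the family: Bcl2, Bcl2l1, Mcl1, Bax, Bak1, Bbc3, Pmaip1, Bcl2l11, Bid and Bmf. The choice was made with earlier results of these data known. Symbols were matched to the deposited gene table, which holds 18828 genes, and all 10 were found in it and passed the filter on low counts, as did 14444 genes in all. Of the 10 genes, 3 code for pro-survival proteins and 7 for pro-death proteins, of which 2 are effectors and 5 are BH3-only proteins. The RNA came from splenic T cells of wild-type FVB mice, an inbred strain, cultured with beads against CD3 and CD28, which replace antigen and costimulation. At the start of stimulation the cells received either 50 µM urolithin A, a gut microbial product of dietary ellagitannins, or DMSO, the solvent, and they were harvested after 48 h. Each of the 2 groups held 3 libraries, lettered a, b and c, and the labels leave unsaid whether a letter stands for an animal or a culture. The p-values therefore cover only the spread between these libraries, which may be technical.

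The BCL2 family controls the mitochondrial route of apoptosis. The effector proteins BAX and BAK form pores in the outer mitochondrial membrane, pro-survival proteins hold them and the BH3-only proteins in check, and BH3-only proteins either neutralise the pro-survival proteins or activate the effectors directly. In T cells this balance is known to set the survival of resting cells, the removal of self-reactive thymocytes and the contraction of a response once antigen is gone.

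Total counts lay between 12738059 and 19081219 per library, and 17948 to 18305 genes had a count. Ribosomal RNA set a pair of libraries apart. The share of Rn18s, the 18S gene, was 17.6% in DMSO library b and 3.97% in library a of the treated group, and 0.0687% to 0.887% elsewhere. The T cell genes Cd3d, Cd3e, Cd3g, Cd2, Cd5 and Trac summed to 1531 to 1612 CPM with DMSO and 1519 to 1661 CPM with urolithin A, and 0 of the 6 passed the limma voom test (CPM are counts scaled to 1e6 per library). B cell markers moved with the treatment. The 6 of them summed to 162 to 179 CPM with DMSO and 205 to 249 CPM with urolithin A, and 3 of 6 were called higher. Of 6 macrophage markers, 4 stayed under 1 CPM in every library and 1, Mpeg1, was called higher, with sums of 6.19 to 7.89 CPM and 12.7 to 14.7 CPM. Sums for dendritic cells, NK cells, red cells and platelets stayed between 1.01 and 3.29 CPM in every library, with Hbb-bs called higher, and the granulocyte gene S100a9 had 0 counts in all. Of Cd4, Cd8a and Cd8b1, 1 gene, Cd4, was called higher, and the 3 summed to 433 to 449 CPM with DMSO and 482 to 511 CPM with urolithin A. The part of these cells in the results on the BCL2 family was not tested. In bulk RNA, a shift in which cells are present and a shift in RNA per cell cannot be told apart.

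Most of the 7 chosen pro-death transcripts rose with urolithin A, while the 3 chosen pro-survival transcripts showed smaller differences in both directions. This does not extend to the whole family, since of 4 other pro-death relatives tested 3 fell and none rose, as given below. Of the 7 pro-death genes, 5 rose (Bbc3, Pmaip1, Bcl2l11, Bax and Bmf), none fell and 2 did not pass, where 17.7% of all genes tested rose, 16.0% fell and 33.7% passed in either direction. Groups were without overlap for 6 of the 10 genes, all higher, against 24.1% of all genes higher and 22.7% lower. The median log2 fold change of the 7 pro-death genes was 0.84, against 0.01 over all genes tested. Since the genes were chosen with earlier results of these data known, these counts and this median describe them and test nothing. None of the 3 pro-survival genes passed limma voom at an adjusted p of 0.05. At an unadjusted p under 0.05, 2 of these 3 were higher and 1 was lower, and limma with a trend on log2(CPM + 1) likewise called 0 of them. The share of all genes at that unadjusted cut was not counted, and it cannot be below the 33.7% that passed after adjustment.

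**Figure D1:**
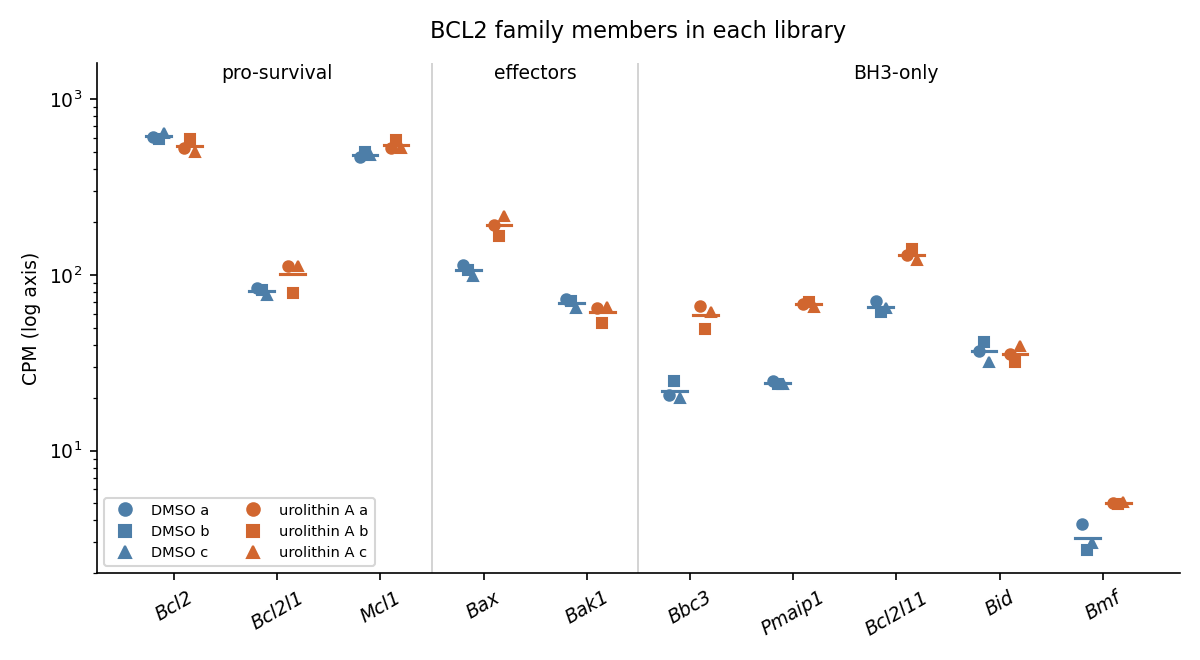
CPM on a log axis of the 10 BCL2 family genes in each library, DMSO in blue and urolithin A in orange, with marker shapes for libraries a, b and c and bars for the means of 3 libraries. Bax, Bbc3, Pmaip1, Bcl2l11, Bmf and Mcl1 have all 3 urolithin A values above all 3 DMSO values.

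Among the BH3-only genes, Pmaip1 and Bbc3 showed the largest rises of the 10 genes. Pmaip1 encodes NOXA, which binds chiefly MCL1 and promotes its degradation, and it is known as a p53 target. Its level was 24.8, 23.8 and 24.0 CPM in the DMSO group, in the order a, b, c that holds throughout, and 68.1, 70.2 and 65.5 CPM in the urolithin A group. The groups lay far apart and the values within each were close. The log2 fold change was 1.49 ± 0.08 (SE, limma adjusted p = 9.77e-09), a 2.81-fold rise, and 255 of the 14444 genes tested had a larger one. Bbc3 encodes PUMA, which binds all the main pro-survival proteins and is also a p53 target. It was at 20.8, 24.8 and 19.9 CPM with DMSO and at 66.6, 49.3 and 61.6 CPM with urolithin A, and the lowest treated library, b, was well above the highest control. The log2 fold change of Bbc3 was 1.44 ± 0.12 (limma adjusted p = 1.27e-06), with a 95% interval of 1.18 to 1.71.

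Bcl2l11 encodes BIM, the BH3-only protein best known for deleting self-reactive thymocytes and for ending T cell responses. Bcl2l11 stood at 70.6, 61.2 and 65.1 CPM with DMSO and at 129, 140 and 122 CPM with urolithin A. All treated libraries were well above all controls, and the log2 fold change was 0.99 ± 0.08 (limma adjusted p = 5.01e-07), a 1.98-fold rise. Bmf, whose protein is held at the actin cytoskeleton and released by stress, was the least abundant of the 10 genes, with 39 to 96 counts per library. It was at 3.83, 2.71 and 2.97 CPM with DMSO and at 4.997, 4.988 and 5.124 CPM with urolithin A. The 3 treated values were nearly equal and above the controls, by 0.67 ± 0.18 on the log2 scale (limma adjusted p = 0.0112). That call was lost without DMSO library b (adjusted p = 0.0654) or c (adjusted p = 0.0511), and without the pair highest in Rn18s, DMSO b with urolithin A a (adjusted p = 0.123).

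Bid, which caspase-8 or granzyme B cleaves to link other death routes to mitochondria, was the BH3-only gene that did not pass. Its values were 36.6, 41.6 and 31.8 CPM with DMSO and 35.7, 32.0 and 39.3 CPM with urolithin A. The groups overlapped fully, and the 95% interval of the log2 fold change of Bid ran from -0.27 to 0.20 (limma adjusted p = 0.828). In GENCODE M21, 17.7% of the exon bases of Bid lie under exons of Bcl2l13 on the opposite strand, and whether counting used the read strand remains unstated in the labels and notes. Bcl2l13 was at 66.7 ± 3.67 CPM (SD, n = 3) in controls and 59.6 ± 4.87 CPM in the treated group.

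The effectors went apart. Bax, a p53 target in many tissues, was at 114, 107 and 98.6 CPM with DMSO and at 193, 167 and 216 CPM with urolithin A. Every treated library was higher than every control, and the log2 fold change of Bax was 0.84 ± 0.09 (limma adjusted p = 1.06e-05), a 1.80-fold rise. Bak1, which encodes BAK, was at 73.0, 70.7 and 64.8 CPM with DMSO and at 64.3, 53.1 and 66.0 CPM with urolithin A. The groups of Bak1 overlapped through library c of each, and the log2 fold change of -0.19 ± 0.09 did not pass (limma adjusted p = 0.128), with a 95% interval of -0.39 to 0.01. The log2 ratio of Bax to Bak1, a ratio picked after their values were seen, was 0.64, 0.59 and 0.61 with DMSO and 1.58, 1.65 and 1.71 with urolithin A. It was higher in 3 of 3 treated libraries by 1.04, and the exact two-sided permutation p of 0.1 is the smallest that 3 against 3 libraries can give. In GENCODE M21, exons of Ggnbp1 on the opposite strand cover up to 18.2% of the exon bases of Bak1, and Ggnbp1 was at 3.65 ± 0.69 and 2.22 ± 0.25 CPM. Gm45808 lies over 12.2% of those of Bax on the same strand.

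Rises of Bbc3, Pmaip1, Bcl2l11 and Bax were called under each of the 17 alternative fits run, which included leaving out any single library. Their highest adjusted p over those fits was 7.34e-05 for Bbc3, 6.43e-06 for Pmaip1, 0.000148 for Bcl2l11 and 0.0011 for Bax. Without the pair of libraries highest in Rn18s, the log2 fold changes were 1.42 for Bbc3, 1.46 for Pmaip1, 0.93 for Bcl2l11 and 0.83 for Bax.

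Of the pro-survival genes, Bcl2, the founding member of the family and a survival factor of resting T cells, was high in every library. It stood at 607, 593 and 640 CPM with DMSO and at 527, 595 and 500 CPM with urolithin A. Libraries a and c of the treated group were below all controls, and library b was among them. The log2 fold change of Bcl2 was -0.19 ± 0.07 (limma adjusted p = 0.0695), with a 95% interval of -0.35 to -0.03. Without urolithin A library b Bcl2 was called lower (log2 fold change -0.25, adjusted p = 0.00161).

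Mcl1, whose short-lived protein T cells need at all stages, was at 469, 498 and 480 CPM with DMSO and at 524, 588 and 525 CPM with urolithin A. The groups of Mcl1 did not overlap, as was so for 46.8% of all genes tested, counting both directions. Its log2 fold change of 0.18 ± 0.07 did not pass (limma adjusted p = 0.0651, and 0.0499822 without urolithin A library c), with a 95% interval of 0.03 to 0.32. Bcl2l1 encodes BCL-XL, which activated T cells induce after CD28 signals. Bcl2l1 was at 84.4, 82.0 and 76.7 CPM with DMSO and at 112, 79.0 and 112 CPM with urolithin A. Treated libraries a and c lay above the controls and library b lay among them. The log2 fold change of Bcl2l1 was 0.30 ± 0.12 (limma adjusted p = 0.0753). When urolithin A library b was left out, Bcl2l1 was called higher (log2 fold change 0.47, adjusted p = 2.24e-06). It was also called when libraries were scaled to total counts (adjusted p = 0.0343) and with a term for the library letter (adjusted p = 0.0375).

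Urolithin A library b was at an end of the treated range for each of the 10 genes. It was the lowest treated library for 6 of them (Bcl2l1, Bax, Bak1, Bbc3, Bid and Bmf) and the highest for the other 4 (Bcl2, Mcl1, Pmaip1 and Bcl2l11). The gap was widest for Bcl2l1, with a highest treated value 1.42 times the lowest. In the DMSO group the spread of Bcl2l1 was 1.10 times. Library c of the treated group was the lowest for 3 of the 10 genes and the highest for 5. How often each library is at an end over all genes was not counted. Mitochondrially encoded genes took 1.57% of the counts of urolithin A library b and 0.766% to 1.19% in the other libraries, and the part of this in the gene differences was not tested.

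**Figure D2:**
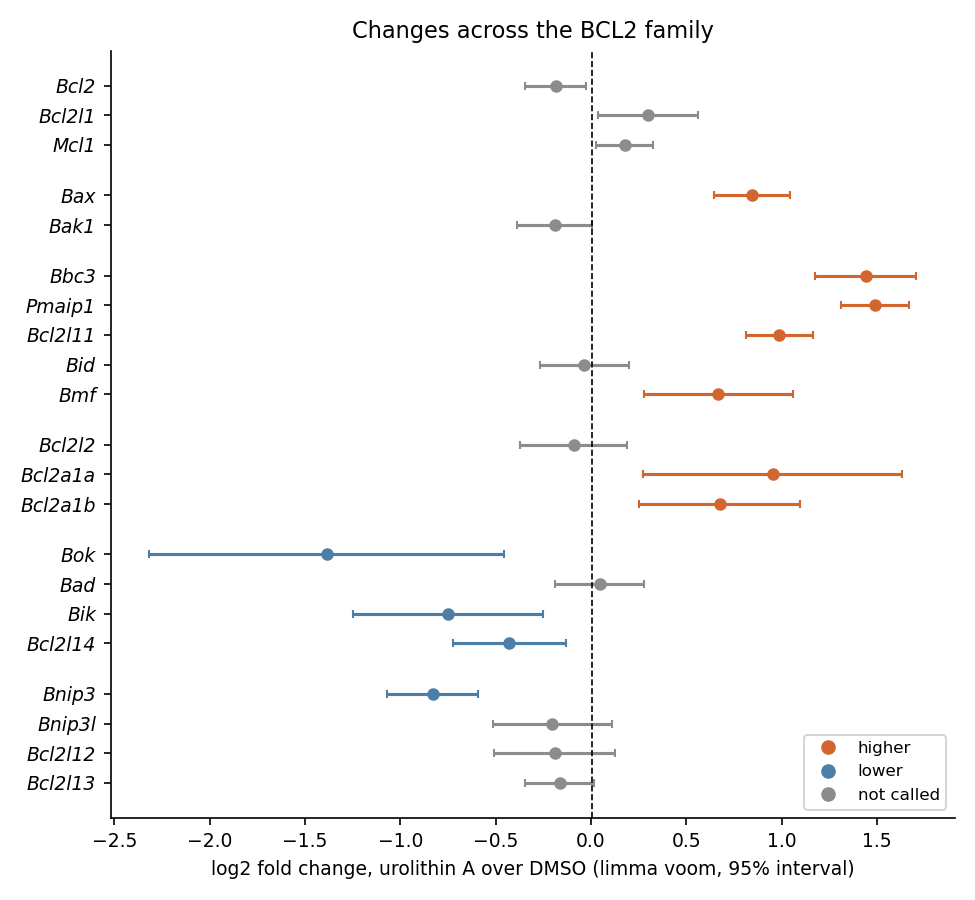
Log2 fold changes of urolithin A over DMSO with 95% intervals from limma voom for the 10 genes, by role in the first 3 blocks, and for other tested BCL2 relatives in the 3 blocks below (pro-survival, pro-death and mixed role). Orange points were called higher, blue points lower and grey points were not called, and the dashed line is the median of all genes tested, 0.01.

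Transcript ratios of proteins known to bind each other showed the shift library by library, free of library scaling. The log2 ratio of Pmaip1 to Mcl1 was -4.24, -4.39 and -4.32 with DMSO and -2.944, -3.066 and -3.002 with urolithin A, a 2.49-fold rise. For Bbc3 to Bcl2l1 it was -2.02, -1.73 and -1.95 with DMSO and -0.75, -0.68 and -0.86 with urolithin A, a 2.19-fold rise. For Bcl2l11 to Bcl2 it was -3.10, -3.28 and -3.30 with DMSO and -2.03, -2.09 and -2.04 with urolithin A, a 2.26-fold rise. In each of these ratios the BH3-only gene gained on its partner in all 3 treated libraries. The ratio of Bax to Bcl2 rose likewise, from a mean log2 of -2.53 ± 0.15 (SD, n = 3) to -1.50 ± 0.32. Ratios with Bak1 went the other way. Against Mcl1 its log2 ratio was -2.80 ± 0.10 with DMSO and -3.16 ± 0.27 with urolithin A, and against Bcl2l1 it was -0.22 ± 0.02 and -0.71 ± 0.12. The groups did not overlap in any of these 6 ratios. With 3 against 3 libraries this alone sets the exact two-sided permutation p at 0.1, the smallest possible, so that p adds nothing further. Of single genes, 46.8% of all tested were without overlap, counting both directions, and the share for ratios of genes was not counted. The 6 ratios also share genes with each other, so they are not separate results.

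**Figure D3:**
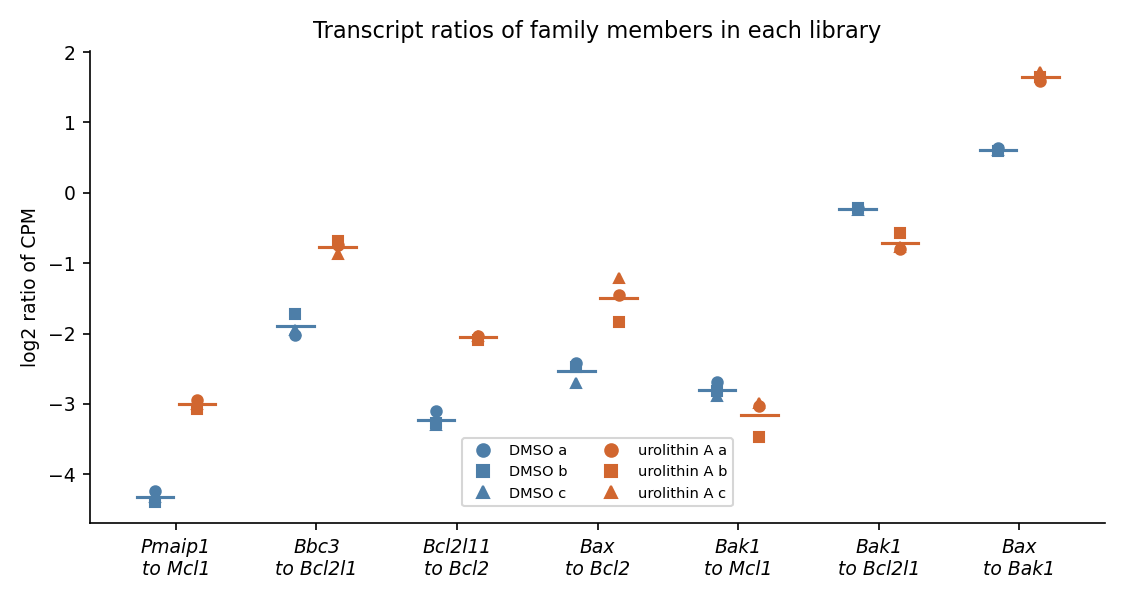
Log2 ratio of the CPM of paired BCL2 family genes in each library, DMSO in blue and urolithin A in orange, with bars for the means of 3 libraries. Ratios of Pmaip1, Bbc3, Bcl2l11 and Bax to their partners lie higher with urolithin A and those of Bak1 to Mcl1 and Bcl2l1 lie lower.

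As a summary of the contrast between roles, the mean log2(CPM + 0.5) of the 3 pro-survival genes was taken from that of the 7 pro-death genes in each library. The difference was -3.09, -3.15 and -3.24 with DMSO and -2.52, -2.60 and -2.48 with urolithin A. Every treated library was higher, and the group means differed by 0.63, a description for which no test is given. Over all tested family genes, 11 pro-death and 6 pro-survival, the group means differed by 0.0691 and the libraries overlapped. Sums of CPM by role were without overlap for the pro-death genes and overlapped for the pro-survival genes. Pro-death genes summed to 343, 331 and 307 CPM with DMSO and to 561, 516 and 576 CPM with urolithin A. Pro-survival genes summed to 1161, 1174 and 1197 CPM with DMSO and to 1162, 1262 and 1137 CPM with urolithin A. BH3-only genes alone went from 144 to 157 CPM with DMSO to 294 to 304 CPM with urolithin A. The effectors together went from 163 to 187 CPM to 220 to 282 CPM. These sums weigh long transcripts more than short ones.

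Levels of different genes were compared per kilobase of exon, with the merged exons of each gene in GENCODE M21 as length. With DMSO the order was Mcl1 at 141 ± 4.31 CPM per kb (SD, n = 3), Bax at 67.5 ± 4.85, Bcl2 at 67.0 ± 2.64, Bak1 at 28.9 ± 1.76 and Bcl2l1 at 17.7 ± 0.86. Bid, Bbc3, Pmaip1 and Bcl2l11 followed between 10.3 and 8.18 CPM per kb, and Bmf was last at 0.60 ± 0.11. Bax and Bcl2 overlapped, as did Bid with Bbc3 and Pmaip1 with Bcl2l11, while the other neighbours in this order did not. With urolithin A Bax, at 122 ± 15.9 CPM per kb, stood clear of Bcl2 at 59.0 ± 5.32, and Mcl1 was still first at 160 ± 10.8 CPM per kb. Bbc3 at 27.9 ± 4.19, Bak1 at 25.4 ± 2.93, Pmaip1 at 24.9 ± 0.87 and Bcl2l1 at 22.0 ± 4.15 CPM per kb followed, each overlapping the next, and Bcl2l11 at 16.2 ± 1.11 overlapped Bcl2l1. Bid at 10.0 ± 1.04 and Bmf at 0.96 ± 0.01 CPM per kb came last. Thus the level per length of Bbc3 and Pmaip1 lay below that of Bcl2l1 and Bak1 in all DMSO libraries and overlapped both with urolithin A. Lengths of merged exons can differ from those of the isoforms in use, which shifts all 6 libraries of a gene alike.

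**Figure D4:**
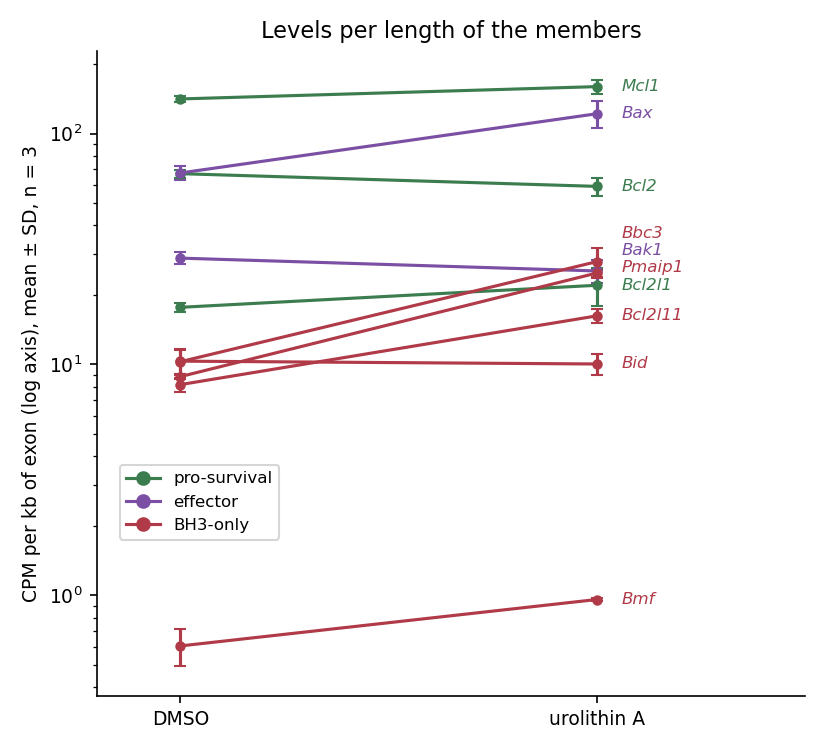
Mean CPM per kb of exon, on a log axis, of the 10 genes in the DMSO and urolithin A groups, with error bars for the SD of 3 libraries and colours for the role. Bbc3 and Pmaip1 climb from 10.3 and 8.86 to overlap Bak1 and Bcl2l1, while Mcl1 is the highest line in both groups.

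Promoter windows of Bax, Bmf, Bbc3 and Bcl2l11 are shown because these genes rose together and because several are known targets of p53 or of FOXO factors. Where a gene had several windows, the one printed was picked for its match to a p53 half-site or FOXO core. RefSeq windows on GRCm38.p6, from 250 bases before to 50 after a start site, were found for 9 of the 10 genes, in 16 windows, with no entry for Pmaip1. The p53 half-site consensus was searched on both strands, as were the FOXO core TGTTTAC and the E-box CACGTG. Each motif was present in 2 of the 16 windows, against 8.36% of all 32851 windows for the p53 half-site, 3.65% for the FOXO core and 7.15% for the E-box. Capitals mark the matches, which did not overlap. In Bax (chr7:45466849-45467148, minus strand) they are a p53 half-site that begins 201 bases before the start, then 2 E-boxes. In Bmf (chr2:118544538-118544837, minus strand, 1 of 3 windows) they are a p53 half-site 213 bases before the start. In Bbc3 (chr7:16310011-16310310, plus strand, 1 of 3 windows) and Bcl2l11 (chr2:128125788-128126087, plus strand, 1 of 2 windows) they are a FOXO core 167 and 227 bases before the start, in Bcl2l11 on the opposite strand. Another Bbc3 window, not printed, held an E-box 64 bases before its start.
Bax: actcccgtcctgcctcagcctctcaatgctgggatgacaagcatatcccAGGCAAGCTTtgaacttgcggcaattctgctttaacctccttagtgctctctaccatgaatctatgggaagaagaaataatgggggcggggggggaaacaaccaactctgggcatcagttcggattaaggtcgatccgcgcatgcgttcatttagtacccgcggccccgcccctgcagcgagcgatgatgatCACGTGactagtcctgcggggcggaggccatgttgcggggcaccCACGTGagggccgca
Bmf: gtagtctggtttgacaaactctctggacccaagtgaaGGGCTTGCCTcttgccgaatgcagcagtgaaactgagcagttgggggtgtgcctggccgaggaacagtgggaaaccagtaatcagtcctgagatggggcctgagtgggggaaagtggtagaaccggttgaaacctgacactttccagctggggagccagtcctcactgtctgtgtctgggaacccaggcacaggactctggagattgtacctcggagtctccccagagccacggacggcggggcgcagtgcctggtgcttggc
Bbc3: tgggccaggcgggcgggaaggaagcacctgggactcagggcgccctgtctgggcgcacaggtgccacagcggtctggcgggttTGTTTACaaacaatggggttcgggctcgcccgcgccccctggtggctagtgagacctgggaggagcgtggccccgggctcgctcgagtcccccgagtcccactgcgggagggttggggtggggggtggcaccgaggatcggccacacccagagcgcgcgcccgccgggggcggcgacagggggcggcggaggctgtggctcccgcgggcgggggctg
Bcl2l11: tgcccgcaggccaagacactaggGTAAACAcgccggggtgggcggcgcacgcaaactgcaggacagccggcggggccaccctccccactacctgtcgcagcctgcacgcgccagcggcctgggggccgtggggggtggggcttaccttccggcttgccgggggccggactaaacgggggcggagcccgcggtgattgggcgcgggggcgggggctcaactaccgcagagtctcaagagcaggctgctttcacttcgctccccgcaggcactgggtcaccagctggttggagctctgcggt
A match is a description of these letters and no evidence of binding. The windows of Bcl2, Bcl2l1, Mcl1, Bak1 and Bid held none of the 3 motifs. Neither did the unprinted windows of Bmf and Bcl2l11, nor a further one of Bbc3. Whether matches go with the rises was not tested.

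Among other BCL2 relatives, the called pro-survival genes rose and the called pro-death genes fell. This differs from the 10 genes, where the called genes were pro-death and rose. Of 5 further pro-survival relatives, 3 could be tested, and 2 rose and none fell, beside 17.7% and 16.0% of all genes. These were Bcl2a1b, at 2.71 ± 0.50 CPM (SD, n = 3) in controls and 4.25 ± 0.36 CPM in the treated group (limma adjusted p = 0.0162), and Bcl2a1a, at 0.86 ± 0.34 and 1.58 ± 0.21 CPM (adjusted p = 0.0314). Both encode A1, an NF-kB target of lymphocytes, and are near-identical copies whose reads the counting could split, so their counts are uncertain. The call of each was lost without DMSO library a or c or urolithin A library a (adjusted p up to 0.132 for Bcl2a1a and 0.0787 for Bcl2a1b) and without the pair highest in Rn18s (adjusted p = 0.0717 and 0.0743), and that of Bcl2a1a also with a term for the library letter (adjusted p = 0.0649). A1 is also made by B cells and myeloid cells, whose markers are given above. Bcl2l2, which encodes BCL-W, was at 12.6 ± 1.78 and 11.8 ± 1.12 CPM and did not pass (adjusted p = 0.633). Bcl2a1d had 2 to 10 counts per library and was not tested, and Bcl2l10 was not analysed here.

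Among 5 further pro-death relatives, 4 could be tested, and 3 fell and none rose, at low levels, where 16.0% of all genes fell and 17.7% rose. By an unadjusted p under 0.05 (share of all genes not counted), or with limma and a trend, the counts were the same, 3 and 0. Bok, an effector-like protein, was at 11, 18 and 21 counts with DMSO and 11, 5 and 3 counts with urolithin A. Its log2 fold change was -1.39 ± 0.44 (limma adjusted p = 0.0238). The BH3-only gene Bik was at 2.99 ± 0.25 and 1.83 ± 0.43 CPM (adjusted p = 0.0227). Bcl2l14 was at 8.02 ± 0.44 and 5.96 ± 0.13 CPM (adjusted p = 0.0263). Bok entered 12 of the 17 alternative fits. The calls of all 3 were lost when certain single libraries were omitted (highest adjusted p 0.0712 for Bok, 0.114 for Bik and 0.0879 for Bcl2l14). The calls of Bik (adjusted p = 0.249) and Bcl2l14 (0.1005) were also lost without the pair highest in Rn18s, and under scaling to total counts (0.0950 and 0.274). Bad, a BH3-only protein that survival kinases switch off, was at 17.4 ± 1.31 and 18.0 ± 1.56 CPM (adjusted p = 0.779), and Hrk was not analysed here.

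Of 5 BCL2-related genes with other or mixed roles, 4 could be tested and 1 fell, beside 16.0% of all genes. Bnip3, a mitophagy receptor that hypoxia induces, was at 54.4 ± 4.56 CPM in controls and 30.6 ± 5.20 CPM in the treated group (log2 fold change -0.83 ± 0.11, limma adjusted p = 5.98e-05). Its relative Bnip3l had a log2 fold change of -0.20 ± 0.14 (adjusted p = 0.298), and was called lower without urolithin A library b (-0.39, adjusted p = 3.34e-05). Bcl2l12 and Bcl2l13 did not pass, at -0.19 ± 0.15 and -0.17 ± 0.08, and Bcl2l15 had too few counts.

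The genes that act at and after the mitochondrial step moved in both directions, with 4 of 15 higher and 4 lower, where 17.7% of all genes tested were higher and 16.0% lower, and a median log2 fold change of -0.08. Limma with a trend called 3 higher and 4 lower. Apaf1, the scaffold of the apoptosome, rose from 128 ± 4.86 to 256 ± 14.0 CPM (SD, n = 3, limma adjusted p = 1.17e-07). Xiap, an inhibitor of caspases, rose by 0.57 ± 0.08 on the log2 scale. Endog, a mitochondrial nuclease, had a log2 fold change of -1.13 ± 0.16, Vdac1, an outer membrane channel, -0.37 ± 0.07, and Htra2, a protease that opposes XIAP, -0.48 ± 0.11. The calls of Vdac1 and Htra2 were lost under scaling to total counts (limma adjusted p = 0.139 and 0.0630). Of 18 regulators of the proteins of the 10 genes, 5 rose and none fell, beside 17.7% and 16.0% of all genes, at a median log2 fold change of 0.06. At an unadjusted p under 0.05 (share of all genes not counted), 6 were higher and 2 lower, and limma with a trend called 5 and 0. The named ones were Mapk9, the kinase JNK2, at 0.41 ± 0.08, Usp9x, a deubiquitinase that stabilises MCL1, at 0.29 ± 0.07, and Pim2, a survival kinase that phosphorylates BAD, at 0.25 ± 0.08. The call of Usp9x was lost without the pair highest in Rn18s (adjusted p = 0.0773), and that of Pim2 in 6 of 17 alternative fits (highest adjusted p 0.195).

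Of 14 transcription factors known to act on these genes and tested here, 4 rose and 5 fell, beside 17.7% and 16.0% of all genes, and their median log2 fold change was -0.03. At an unadjusted p under 0.05 (share of all genes not counted), 4 were higher and 6 lower. Foxo3 and Foxo1, known activators of Bcl2l11 and Bbc3, rose by 0.61 ± 0.08 and 0.48 ± 0.08 on the log2 scale (limma adjusted p = 2.42e-05 and 0.000432). Rel, the NF-kB subunit that acts on Bcl2l1 and the A1 genes, rose from 19.2 ± 1.04 to 38.2 ± 1.74 CPM (SD, n = 3). The transcript of p53 itself, Trp53, was at 55.3 ± 2.21 and 55.8 ± 9.76 CPM (limma adjusted p = 0.962). The activity of p53 is known to be set mainly through its protein, which these data do not measure. The part of p53 in the results was not tested. Ddit3, which encodes CHOP, an activator of Bcl2l11 and Bbc3 under stress of the endoplasmic reticulum, had a log2 fold change of -1.07 ± 0.09. Atf4, upstream of CHOP, was at -0.89 ± 0.08 and Myc at -0.64 ± 0.11, both lower.

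Outside the family, the protein-coding genes whose log2 CPM followed Bbc3 most closely over the 6 libraries were Kif16b, Kif1b and Tcf20, with Pearson r of 0.998. For Bcl2 they were Slc16a4, Myb and R3hdm1, with r of 0.996 to 0.997. These r are the highest among 11805 genes compared, over only 6 libraries in 2 groups. At the lower cut of r over 0.95 there were 750 genes for Bbc3 and 83 for Bcl2. Pearson r does not measure the size of a change. Log2 fold changes were 0.11 for Kif16b, 0.64 for Kif1b and 0.50 for Tcf20, against 1.44 for Bbc3. They were -0.29 for Slc16a4, -0.29 for Myb and -0.37 for R3hdm1, against -0.19 for Bcl2.

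**Figure D5:**
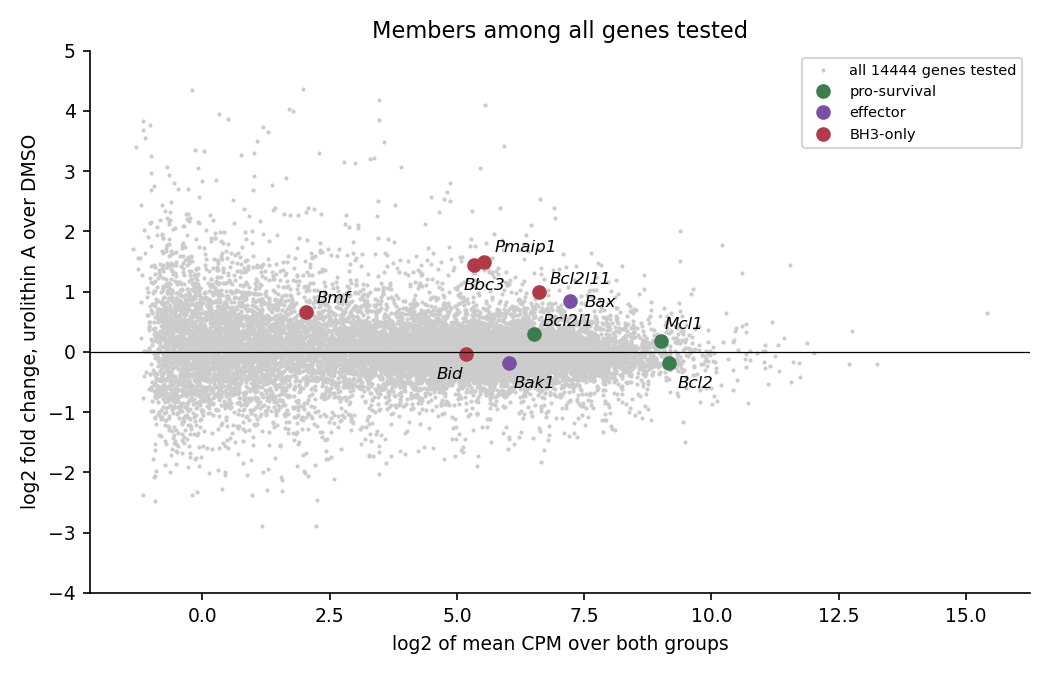
Log2 fold change of urolithin A over DMSO against log2 mean CPM for all 14444 genes tested (grey), with the 10 BCL2 family genes coloured by role. Pmaip1 and Bbc3, at 1.49 and 1.44, sit above most genes of their level, and the 3 pro-survival genes lie between -0.19 and 0.30.

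The table's own coordinates differ from GENCODE M21 of mm10, the build in the submitters' notes, so they are given as deposited and with no build. The 10 genes lay on 7 chromosomes. Bbc3 (ENSMUSG00000002083) lay on chromosome 7 from 16042318 to 16052130 on the plus strand and Bax (ENSMUSG00000003873) on chromosome 7 from 45111121 to 45116322 on the minus strand. Pmaip1 (ENSMUSG00000024521) lay on chromosome 18 from 66591604 to 66598636. Chromosome 2 held Bmf from 118359238 to 118380168, Bcl2l11 from 127967958 to 128004467 and Bcl2l1 from 152622588 to 152673648. Bcl2 lay on chromosome 1 from 106465908 to 106642004, Mcl1 on chromosome 3 from 95566099 to 95570487, Bid on chromosome 6 from 120868891 to 120893814 and Bak1 on chromosome 17 from 27238784 to 27247983.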

How the data were processed

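Per the labels' protocols, 200 ng of total RNA per sample went into a stranded, mRNA-focused library. The submitters' processing notes name bcl2fastq 2.20.0.422, FastQC, STAR 2.5.2a, mm10 and DESeq2. Counting program, annotation and strand use: not given in the sources used here. As a unit, the deposited values are recorded as other, since the authors' table writes whole numbers with a decimal comma, and these were treated as read counts per gene. Of 2 deposited files 1 was used, and 3 of its columns match none of the labelled samples and were left out.

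Genes were kept with at least 10 counts at the median library size in 3 libraries and 15 in all. Libraries were scaled by trimmed means of M values (30% of M and 5% of A trimmed) and tested with limma 3.58.1 voom (offset 0.5, robust empirical Bayes) in R 4.3.3, fitting group alone, with Benjamini-Hochberg adjustment over all genes tested, threshold 0.05. Count models were closed to values of this unit. Tested genes held 99.9% of the counts of every library. Between libraries of a group, chi-square over its degrees of freedom was 7.41 to 22.7, so none was a repeat deposit. The fit was tested on simulated data.

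The genes and lists were chosen with earlier results of these data known. All 10 genes and every listed BCL2 relative are named, and of the other lists up to 3 called genes with the smallest p in each direction, of which 1 is not reported here. Alternatives covered scaling, filters, the test, a term for the library letter, ribosomal RNA genes and each library left out.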

Additional observations from a re-analysis of the deposited data

How the results depend on the processing

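The 5 pro-death calls were 4 to 5 over all alternatives, Bmf being the one lost. The number of pro-survival genes called lower was 0, and 0 to 1 when each library was left out, the exception being Bcl2 without urolithin A library b. The number called higher was 0, and 1 under scaling to total counts, 1 with the replicate block and 0 to 1 with each library left out (Bcl2l1 or Mcl1). The difference between group means of the contrast between roles was 0.63, against 0.74 from log2 of summed CPM and 0.0691 with all tested family genes. That wider set adds 3 pro-death relatives called lower and 2 pro-survival relatives called higher, all of low counts, with Bad and Bcl2l2 not called. Over all genes 4871 were called, 3169 under scaling to total counts, with 70.6% of them higher against 52.6%, and 2522 without the pair of libraries highest in Rn18s, where fewer samples were fitted. Scaling to total counts moved the median log2 fold change of all genes to 0.10. Leaving out each library gave 3485 to 5140 calls. The cause of these shifts was not tested.

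Libraries that share a letter did not deviate together (r of 0.07, -0.14 and -0.08 for a, b and c), so the letters were not taken as pairs. With the replicate block 4496 genes and 5 pro-death genes were called. Bmf, at 39 counts in its lowest library, and the relatives under 10 CPM limit what the depth can show.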
